A study of Arabidopsis thaliana and Hordeum vulgare and Setaria italica with 13 samples.

Results

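All 72 full-length tRNA sequences listed for maize (Zea mays) by YAMAT-seq are described here, of 532 listed in the 5 YAMAT-seq libraries of the study. No sequence was left out. Each was placed in an anticodon family by the middle 3 bases of its 7-base anticodon loop, and the reads of a family were summed and given as a percent of the library. These shares were set against the maize column of a tRNA-seq table, which gives a percent for each of 52 anticodons. Family names join the amino acid to the anticodon, with T for U (GlyGCC), and isodecoders are tRNAs with 1 anticodon and different sequences elsewhere.

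Both libraries were made from RNA of 10-day-old maize seedlings raised in soil, at 23 ºC under 16 h of light and 8 h of darkness, with no genotype, tissue or treatment label beyond the seedling. The RNA was taken up in TRIzol, and a kit made for tRNAs and their fragments was used to pretreat it. YAMAT-seq joined a Y-shaped adapter to both ends of the tRNA with T4 RNA ligase 2, from 2 µg of RNA, and amplified the cDNA over 12 PCR cycles, whereas tRNA-seq used a small RNA library kit. The labels do not say whether both libraries came from the same seedlings, nor whether reads of tRNA fragments count toward the tRNA-seq percents. Each tRNA-seq share below may therefore hold fragments, while YAMAT-seq counts full-length sequences. There was 1 library per side and no replicate, so no difference below could be set against a replicate spread and none was tested.

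A tRNA carries an amino acid to the ribosome and reads a codon through its anticodon, and its 3′ end is the trinucleotide CCA, preceded by the discriminator base. The Y-shaped adapter pairs with this single-stranded end, so that the assay takes up whole, mature tRNAs. Plant cells hold tRNAs encoded in the nucleus, in the plastid and in the mitochondrion, and the plastid set is of bacterial type. Ligation, copying past modified bases and PCR can favour some tRNAs over others, and in RNA of whole seedlings fewer cells of a type and less RNA per cell cannot be told apart.

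The maize reads fell almost wholly on a glycine tRNA and an aspartate tRNA. The 4 sequences below, as the authors deposited them, are shown because they held the most reads in the 4 largest families, with the anticodon in capitals and the CCA end at the right.
tR136: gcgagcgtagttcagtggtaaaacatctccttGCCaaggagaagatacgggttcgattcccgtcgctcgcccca
tR235: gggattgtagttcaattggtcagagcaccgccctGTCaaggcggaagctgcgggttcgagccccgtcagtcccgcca
tR317: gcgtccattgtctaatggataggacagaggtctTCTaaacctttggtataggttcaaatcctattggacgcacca
tR13: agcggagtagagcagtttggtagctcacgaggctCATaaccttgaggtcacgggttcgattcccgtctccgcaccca
The first, tR136, carries GlyGCC, tR235 carries AspGTC, tR317 carries ArgTCT and tR13 carries MetCAT. The 2 sequences after these are the lesser members of GlyGCC and AspGTC that were closest to a nuclear tRNA gene of Arabidopsis thaliana.
tR214: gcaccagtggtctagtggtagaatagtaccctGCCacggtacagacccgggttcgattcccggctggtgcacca
tR291: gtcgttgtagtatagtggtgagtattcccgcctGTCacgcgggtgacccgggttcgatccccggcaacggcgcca
The first of this pair, tR214, holds GlyGCC, and tR291 holds AspGTC.

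The library held 19833183 reads, the deepest of the 5 YAMAT-seq libraries, whose other totals ran from 6851530 to 13439654. All 72 sequences ended in CCA, 14 had over 1000 reads, 6 had over 10000, and 28 had under 10, with 101 reads between them. The lowest count was 1, and the sequence names were numbered up to tR388, and no sequence was listed with 0 reads. Intervals in square brackets are exact Clopper-Pearson 95% intervals. They cover counting error alone, because reads copied by PCR without molecular identifiers are not separate molecules. The anticodon rule gave the named anticodon in 143 of 143 A. thaliana sequences that carry one in their name. In maize it placed 68 sequences with a 7-base loop and 4 with a longer loop, and 2 AspGTC sequences, with 37965 reads, had more than 1 possible placement. The nearest A. thaliana tRNA gene was annotated for the amino acid of the anticodon in 71 of the 72 sequences, and the exception had 169 reads.

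GlyGCC made up 95.1% of the maize YAMAT-seq reads [95.12 to 95.14], against 2.82% of maize tRNA-seq. Its share was 33.7-fold higher in YAMAT-seq, and it was the sixth family of the tRNA-seq column. Within it, tR136 alone had 18864878 reads. AspGTC followed in YAMAT-seq with 795245 reads, 4.01% [4.00 to 4.02], against 7.42% in tRNA-seq, a share 1.85-fold lower. These 2 families left under 1% of the YAMAT-seq library to the other 24, whereas SerGGA and SerGCT, which carry serine, made up 50.97% of tRNA-seq and had no listed YAMAT-seq read.

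The maize library was compared with tRNA-seq family by family, past a 4-fold difference in share. Of 24 families with a value on both sides, 21 (87.5%) were at least 4-fold lower in YAMAT-seq and 1 (4.17%), GlyGCC, was at least 4-fold higher. AspGTC and CysGCA were within 4-fold. The median family was 272-fold lower in YAMAT-seq, a log2 ratio of -8.09. Shares of a library sum to a whole, so a family as large as GlyGCC lowers the share of every other one.

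**Figure D1:**
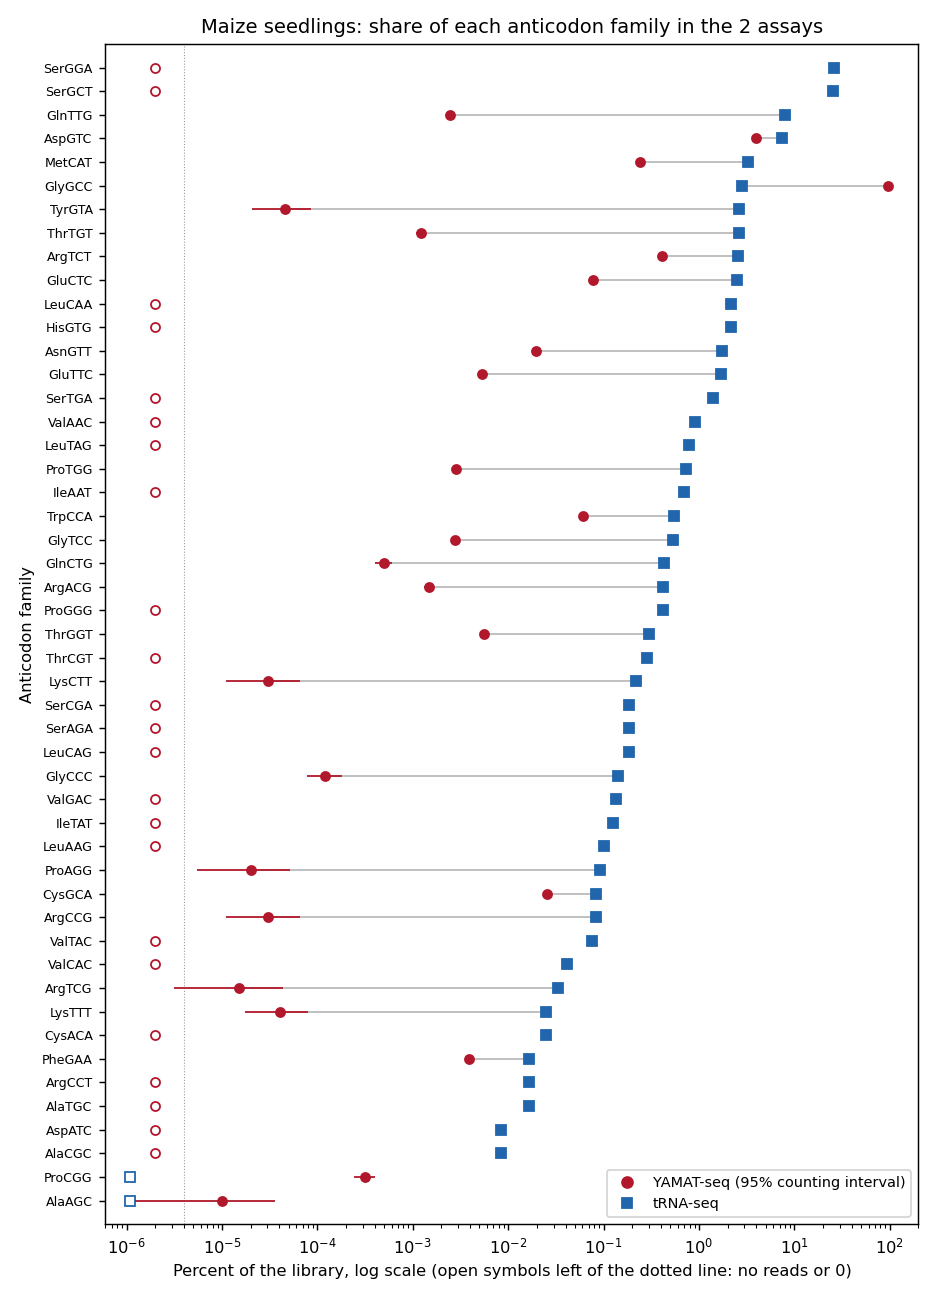
Share of each anticodon family in maize YAMAT-seq (red circles, with 95% counting intervals) and tRNA-seq (blue squares), in percent on a log axis, with families ordered by their tRNA-seq share and open symbols for no reads or a value of 0. Among families with a value in both assays, GlyGCC alone has its red circle to the right of its blue square, at 95.1% against 2.82%.

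After these 2 families the maize YAMAT-seq library was led by tRNAs for arginine, methionine, glutamate, tryptophan, cysteine and asparagine. ArgTCT had 81291 reads, 0.410% [0.407 to 0.413], against 2.54% of tRNA-seq. MetCAT had 47906 reads, 0.242%, against 3.29% of tRNA-seq, and 47898 of these reads lay on tR13 alone. Initiator and elongator methionine tRNAs share this anticodon and were not separated here, so the reads need not cover both. An isoleucine tRNA whose gene reads CAT, known in plastids and mitochondria, would also be counted in MetCAT. For all 4 MetCAT sequences listed in maize, the nearest A. thaliana tRNA gene was annotated for methionine. GluCTC had 15417 reads, 0.0777%, against 2.48% of tRNA-seq, and TrpCCA had 12199 reads, 0.0615%, against 0.544% of tRNA-seq. CysGCA had 5075 reads, 0.0256%, against 0.0837% of tRNA-seq, the smallest difference after AspGTC at 3.27-fold lower. AsnGTT had 3871 reads, 0.0195%, against 1.74% of tRNA-seq. The fold by which these families were lower in YAMAT-seq was thus not one constant, and ran from 3.27 for CysGCA over 6.21 for ArgTCT, 8.85 for TrpCCA, 13.6 for MetCAT and 31.9 for GluCTC to 89.2 for AsnGTT.

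Among families of at least 1% of tRNA-seq with reads in both assays, the largest gaps lay in tyrosine, glutamine and threonine tRNAs. TyrGTA had 9 reads in YAMAT-seq, against 2.63% of tRNA-seq, a share 57919-fold lower. All 9 lay on sequences with 12 or 13 extra bases in the anticodon loop. No TyrGTA sequence with a 7-base loop was listed, so this fold does not describe one. GlnTTG, the third family of maize tRNA-seq at 7.96%, had 487 YAMAT-seq reads, 0.00246% [0.00224 to 0.00268], 3242-fold lower. All 487 lay on sequences closest to nuclear tRNA genes of A. thaliana. The GlnTTG sequences that led this family in the other 4 YAMAT-seq libraries were not listed in maize. ThrTGT had 244 YAMAT-seq reads, against 2.62% of tRNA-seq, and was 2130-fold lower. GluTTC had 1063 YAMAT-seq reads, 0.00536%, against 1.72% of tRNA-seq, and was 320-fold lower. Among these larger families, counting error was widest relative to the share in TyrGTA, whose 9 reads allow a YAMAT-seq share from 2.07e-05% to 8.61e-05%. Of the smaller families, the 2 for lysine had 8 and 6 reads (LysTTT and LysCTT), and PheGAA, with 772 reads, held 0.00389% of YAMAT-seq against 0.0167% of tRNA-seq.

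By the amino acid carried, the assays gave maize different leading groups. Glycine and alanine tRNAs held 95.1% of YAMAT-seq and 3.52% of tRNA-seq, and all but 2 of those YAMAT-seq reads were glycine. Serine and threonine tRNAs held 0.00685% of YAMAT-seq and 55.9% of tRNA-seq. Aspartate and glutamate tRNAs held 4.09% of YAMAT-seq and 11.6% of tRNA-seq, and asparagine and glutamine tRNAs, their amides, held 0.0225% of YAMAT-seq and 10.13% of tRNA-seq. Tyrosine, phenylalanine and tryptophan, the aromatic residues, held 0.0654% in YAMAT-seq and 3.19% in tRNA-seq. The basic residues arginine, lysine and histidine held 0.411% in YAMAT-seq and 5.52% in tRNA-seq, and cysteine, methionine and proline held 0.2703% of YAMAT-seq and 4.65% of tRNA-seq.

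No maize read was listed for valine, isoleucine, leucine, serine or histidine by this rule. Leucine and serine tRNAs share a long variable arm, and 9 of their 10 families were above 0 in maize tRNA-seq, with 56.0% together. The branched-chain residues valine, isoleucine and leucine had 0 of 12 families in YAMAT-seq and 10 in tRNA-seq, with 5.25%. HisGTG, whose mature form carries an extra guanosine at the 5′ end, stood at 2.18% of tRNA-seq. In all, 23 families above 0 in tRNA-seq had no listed read, and they made up 60.94% of the tRNA-seq column, while the 26 families with reads made up 38.87%. Of these 23, 16 reached 0.1% of tRNA-seq, led by SerGGA at 25.8%, SerGCT at 25.1%, LeuCAA at 2.19%, HisGTG at 2.18% and SerTGA at 1.41%. The others of the 16 were ValAAC, LeuTAG, IleAAT, ProGGG, ThrCGT, LeuCAG, SerAGA, SerCGA, ValGAC, IleTAT and LeuAAG, between 0.1004% and 0.904%. At the depth of this library 0 reads allow a share of up to 1.51e-05%, taken as 3 counts of the total (the exact interval ends at 1.86e-05%), if the set of tRNAs to which reads were matched held the family, and the labels do not describe that set.

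The reverse case was rare. ProCGG had 63 YAMAT-seq reads and AlaAGC had 2, and both were listed at 0 in maize tRNA-seq. The smallest value above 0 in that column was 0.00837%, and all 47 values above 0 were whole multiples of it within 0.01 of a step, so a family below this step could not be seen there. The YAMAT-seq share of ProCGG, 0.000318%, was under that step. LeuTAA, IleGAT and ThrAGT had a value in neither assay. In the maize tRNA-seq column, 3 anticodons were above 0 that stood at 0 in the other 7 columns, ProGGG at 0.419%, CysACA at 0.0251% and AspATC at 0.00837%, and none had a YAMAT-seq read in any of the 5 libraries. CysACA and AspATC stood near the step of 0.00837%, so they may rest on few tRNA-seq counts.

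The first base of the anticodon pairs with the third base of the codon. By this base the order of the classes was the same in both assays, while their shares differed. Families that begin with G held 99.2% of YAMAT-seq and 68.7% of tRNA-seq. Those that begin with T held 0.425% of YAMAT-seq and 18.6% of tRNA-seq, those with C held 0.382% of YAMAT-seq and 10.09% of tRNA-seq, and those with A held 0.00150% of YAMAT-seq and 2.44% of tRNA-seq. The G class is led by GlyGCC and AspGTC on the YAMAT-seq side and by SerGGA and SerGCT on the tRNA-seq side, so its 2 shares were made mostly by different tRNAs. As GlyGCC lowers the share of every other family, the low T, C and A shares of YAMAT-seq depend on it. Outside tR136, G held 83.45% of the YAMAT-seq reads, T 8.70%, C 7.82% and A 0.0308%.

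Because GlyGCC sets the scale, both assays were also scaled without it. The maize YAMAT-seq library then kept 966305 reads, 4.872% of the whole. Of 23 families, 15 (65.2%) were at least 4-fold lower in YAMAT-seq and 3 (13.0%) were at least 4-fold higher. AspGTC made up 82.3% of this remainder, against 7.65% of tRNA-seq, 10.8-fold higher. CysGCA was 6.09-fold, PheGAA 4.63-fold, ArgTCT 3.21-fold, TrpCCA 2.25-fold and MetCAT 1.46-fold higher. CysGCA and PheGAA were low in tRNA-seq, at 0.0837% and 0.0167% over all anticodons, against a step of 0.00837% in that column. The PheGAA value stood near that step and may rest on few counts. The folds of both families carry a tRNA-seq counting error that could not be given. The median family was still 14.3-fold lower in YAMAT-seq. TyrGTA, with reads only on sequences with a longer anticodon loop, was the lowest under both scalings. The direction of these 6 families therefore turned with the scaling, as the plot of the ratio with and without GlyGCC shows, while the order of the families on the ratio scale cannot change under it.

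**Figure D2:**
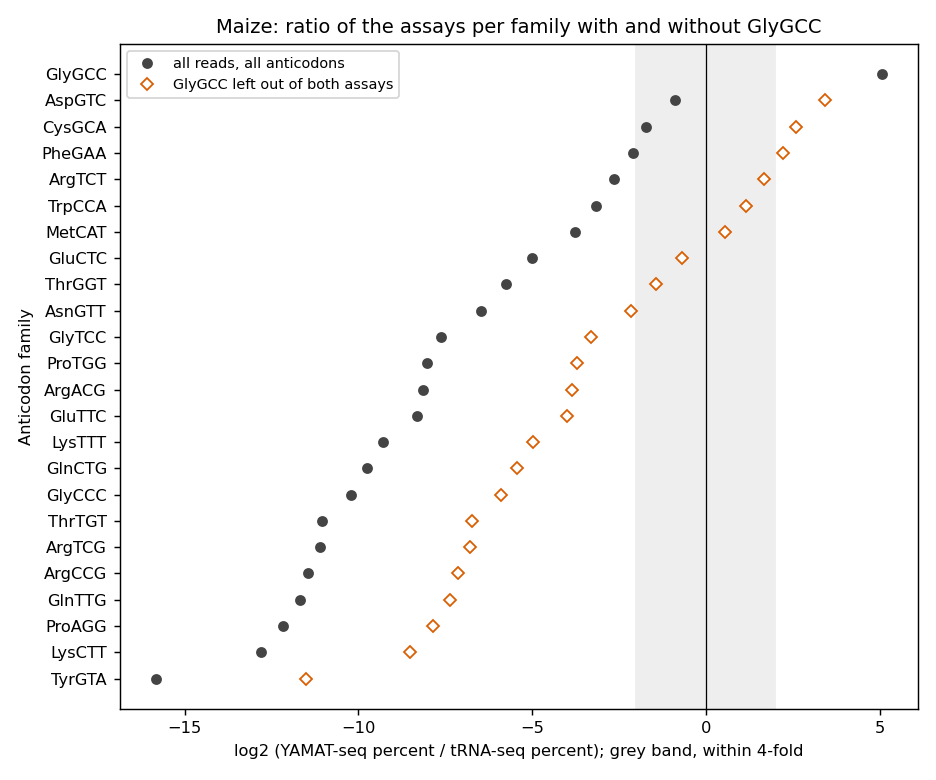
log2 ratio of the YAMAT-seq to the tRNA-seq percent for each maize family with a value in both assays, over all reads (filled circles) and with GlyGCC left out of both (open diamonds), with the grey band marking less than a 4-fold difference. The 23 families move right by 1 amount, and 6 of them cross 0.

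The 72 maize sequences were spread unevenly over the 26 families. A single sequence was listed in 11 families, among them ArgTCT, TrpCCA, PheGAA and ThrTGT, and the other 15 held 61 sequences. In those 15 the leading isodecoder held a median of 89.66% of the family's reads. It held over 99% in 3 of them, GlyGCC, MetCAT and AsnGTT, and under 50% in 3, GlnTTG, GlnCTG and TyrGTA. Over the library, the 5 leading sequences held 99.773% of the reads, the 10 leading ones 99.94%, and the other 62 had 11849 reads.

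GlyGCC had 3 isodecoders. Beside tR136, tR218 had 1888 reads and differs from it by G49A, with positions counted from 1 at the 5′ end, and its count is 0.01% of that of tR136. The third, tR214, had 112 reads, is identical to a nuclear glycine tRNA gene of A. thaliana, and was 25 edits or more from every organelle gene there. AspGTC had 6 isodecoders. The first, tR235, held 95.07% of the family [95.03 to 95.12], and tR291 held 4.77%, with 37957 reads. The others had 1035 reads (tR179), 169 (tR231), 8 (tR221, G51A of tR291) and 4 (tR261).

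GluCTC was the maize family with the most listed isodecoders, 9, followed by ProTGG with 7. By the share of the lead, GluCTC reads were shared out more evenly than those of GlyGCC and AspGTC, though not than those of every family. The leading GluCTC sequence, tR6, had 9638 reads, 62.5% of the family [61.7 to 63.3], and tR316 had 2542, 16.5%. A set of 4 sequences, with 93.7% of the family's reads, is shown with the 4 positions that differ among them in capitals.
tR6: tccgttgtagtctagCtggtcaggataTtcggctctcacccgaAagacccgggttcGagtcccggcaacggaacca
tR316: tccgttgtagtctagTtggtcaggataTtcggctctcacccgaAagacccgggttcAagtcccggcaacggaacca
tR297: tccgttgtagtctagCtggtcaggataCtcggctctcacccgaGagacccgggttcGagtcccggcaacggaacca
tR94: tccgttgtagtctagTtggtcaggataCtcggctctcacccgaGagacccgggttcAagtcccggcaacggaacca
From tR6, tR316 differs by C16T and G57A, and tR297, with 1398 reads, by T28C and A44G. The sequence with all 4 changes, tR94, had 864 reads, so every combination of the 2 pairs of changes was listed. Positions 28 and 44 face each other in the anticodon stem, and a T-A pair in tR6 and tR316 is a C-G pair in tR297 and tR94. Of the remaining GluCTC sequences, tR178 had 555 reads (C21T of tR6), tR248 had 415 (C16T of tR297), and tR329, tR322 and tR79 had 2, 2 and 1. The count of tR322, 1 edit from tR6, is 0.0208% of that of tR6. The count of tR79, 1 edit from tR316, is 0.0393% of that of tR316. Both may not be separate tRNAs, and with them merged GluCTC no longer had more isodecoders than ProTGG.

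Such paired changes were common among maize isodecoders. Of 19 pairs of sequences within a family that differ at 2 positions, 11 had both changes at the 2 sides of 1 base pair and could pair in both forms, with G-T counted as a pair. They lay in 6 families, 5 in the acceptor stem, 3 in the anticodon stem and 3 in the T stem. The glutamine tRNAs with TTG are an example, whose leading 2 sequences are shown with the anticodon in capitals and differ by C5T and G67A.
tR372: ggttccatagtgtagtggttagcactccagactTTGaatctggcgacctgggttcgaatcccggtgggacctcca
tR78: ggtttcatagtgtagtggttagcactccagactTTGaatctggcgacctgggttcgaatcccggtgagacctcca
These had 157 reads, 32.2% of GlnTTG [28.1 to 36.6], and 142 reads, 29.2%, so their order is within counting error. The next GlnTTG sequences had 123 (tR172), 61 (tR9) and 4 reads (tR302). GlyTCC was alike, with 284 reads for tR101, 52.1% of the family, 155 for tR293, which differs by T5C and A67G, and 106 for tR132. In GlnCTG 4 sequences had 32, 30, 25 and 11 reads, and in GlyCCC both had 12. Pairs of one family share sequences, so the 11 are not separate events.

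All 4 TyrGTA sequences carried an insertion in the anticodon loop. Nuclear tyrosine tRNA genes of plants hold an intron at this place, which splicing removes. The loop held an extra 12 bases in tR113, shown with its anticodon in capitals, and an extra 13 in tR87, tR140 and tR195.
tR113: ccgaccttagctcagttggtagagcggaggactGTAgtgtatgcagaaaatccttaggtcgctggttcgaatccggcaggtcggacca
Their reads were 3 for tR87 and 2 for each of the others, and no TyrGTA sequence with a 7-base loop was listed for maize. These 4 were also the longest sequences, at 88 and 89 bases with CCA, while all others had 74 to 77.

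By length, 35 of the 72 sequences had 75 bases, and by discriminator base 33 had A, 14 T, 13 G and 12 C. By reads the order differed, with C at 95.4%, G at 4.09%, A at 0.505% and T at 0.0354%. The C share was made by tR136 and the G share by tR235, so it describes those tRNAs. Outside tR136, G stood before 83.8% of the reads, A before 10.3%, C before 5.15% and T before 0.725%.

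To place the maize sequences by genome, each was compared with the tRNA genes of A. thaliana (TAIR10.1), 608 nuclear, 37 plastid and 22 mitochondrial, since no maize genome was used. Another 17 nuclear genes, within 1 edit of an organelle gene, had been left out. A sequence was assigned to the set with the fewest edits if the next set was at least 5 edits further. The 18 sequences nearest to an organelle gene held 99.72% of the reads, and 53 nearest to a nuclear gene held 0.282% [0.280 to 0.284]. The gap and the genes left out are part of the rule, so the distances describe the classes and do not test them. Organelle-nearest sequences had a median of 2.5 edits to an organelle gene, at most 16, and at least 18 to a nuclear one, while nuclear-nearest ones had a median of 3 edits to a nuclear gene, at most 14, and at least 19 to an organelle one. A median organelle-nearest sequence had 1056.5 reads and a median nuclear-nearest one 11. For the AspGTC sequence tR231 no set was nearer by that gap.

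**Figure D3:**
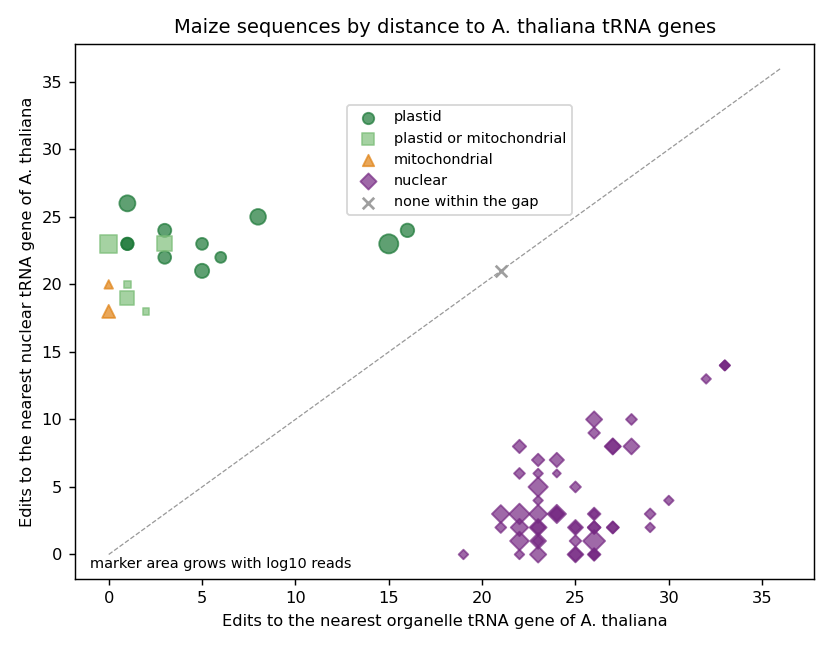
Each maize sequence by its edits to the nearest plastid or mitochondrial (horizontal axis) and nuclear (vertical axis) tRNA gene of A. thaliana, with marker area growing with log10 reads and the dashed line marking equal distance. The nuclear-nearest sequences lie at no more than 14 edits on the vertical axis, and tR231 lies on the line at 21 edits from both.

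By this rule the leading maize tRNAs were nearest to organelle genes of A. thaliana. The plastid class held 11 sequences in 9 families and 95.8% of the reads, with tR136 at 15 edits from a plastid glycine tRNA gene, 22 from the nearest mitochondrial gene, which is annotated for aspartate, and 23 from the nearest nuclear gene, annotated for glycine. Its distance from its nearest gene was large beside that of tR317 (ArgTCT, 1 edit), tR77 (ProTGG, 1 edit), tR97 (ArgACG, 1 edit), tR62 (PheGAA, 3 edits), tR234 (ThrGGT, 3 edits), tR2 (CysGCA, 5 edits), tR165 (ThrTGT, 5 edits) or tR13 (MetCAT, 8 edits). Because of it, a gap of 8 edits moved tR136 to a class of plastid or mitochondrial and left 0.692% in the plastid class, with the nuclear class unchanged. Wider gaps were not run, and with them tR136, at 15 and 23 edits, would fall in no class. The organelle share of the reads thus rests on the class of tR136. Plastid and mitochondrial genes could not be told apart for 5 sequences with 3.89% of the reads. The AspGTC sequence tR235 is identical to a plastid gene and 1 edit from a mitochondrial one, and tR83 (TrpCCA) was 3 edits from a mitochondrial and 4 from a plastid gene. Only tR380 (GluTTC, 999 reads) and tR267 (LysTTT, 8 reads) were nearest to a mitochondrial gene, with 0 edits each.

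Within the nuclear-nearest reads of maize, 55914 in 18 families, AspGTC had 39004, 69.8%, and GluCTC had 15417, 27.6%. The other 16 families had 1493 reads together. Several families joined a large organelle-type sequence with small nuclear-type ones. AspGTC was 95.07% organelle and 4.90% nuclear by this measure, ProTGG was 89.7% plastid (503 reads) and 10.3% nuclear (58 reads), and GluTTC was 94.0% mitochondrial (999 reads) and 6.02% nuclear (64 reads). MetCAT had 47898 plastid reads and 8 nuclear ones, and CysGCA had 5071 and 4. GluCTC, GlyTCC, GlnTTG and GlnCTG were nuclear throughout. tRNA-seq gives no sequence, so these classes have no counterpart on that side.

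**Figure D4:**
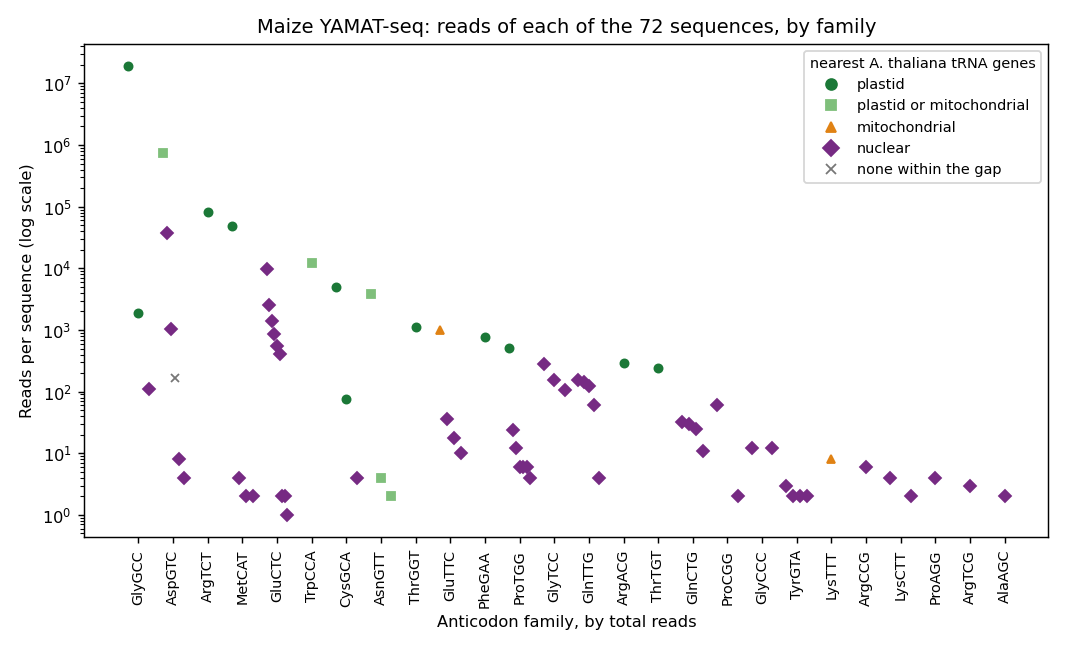
Reads of each of the 72 maize sequences on a log axis, by anticodon family from the most to the fewest reads, with colour and shape giving the nearest class of A. thaliana tRNA gene. GlyGCC and AspGTC each show 1 organelle-type sequence far above the rest, and GluCTC shows 9 nuclear-type ones from 9638 reads down to 1.

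The other 4 YAMAT-seq libraries, also 1 each, held some of the same sequences letter for letter. Of the 72 maize sequences 31 (43.1%) were listed in foxtail millet (Setaria italica), 23 in wheat (Triticum aestivum), 19 in barley (Hordeum vulgare) and 9 in A. thaliana. The 31 held 99.9% of the maize reads and 93.18% of those of S. italica, and they were 38.8% of its 80 sequences. The leading sequence of both libraries was tR136, at 95.12% in maize and 89.5% in S. italica. The leading GlyGCC sequence of H. vulgare differs from tR136 by G15A and T63C, that of T. aestivum by G15A, C24T and T63C, and that of A. thaliana by 15 edits. Those leads held 76.1%, 84.4% and 55.3% of their libraries. For tR235 the sequence was the same in all 5 libraries, at 3.81% in maize, 2.46% in S. italica, 6.84% in H. vulgare, 3.81% in T. aestivum and 3.66% in A. thaliana.

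Of the 72 sequences, 38 were listed in maize alone and had 18790 reads, 35 of them nuclear-nearest, and 5 had over 1000 reads. Over all 72, 53 were nuclear-nearest and 14 had over 1000 reads. The 38 include many sequences with under 10 reads, down to 1. They also include all 6 sequences that lay within 1 edit of one with over 100 times their reads, so some may not be separate tRNAs. All 9 GluCTC sequences were among the 38. The GluCTC lead of S. italica differs from tR6 by C21T, T28C and A44G, and that of A. thaliana by T28C, A44G and A73G. At the other end 5 sequences were in all 5 libraries, tR235 and the nuclear-type tR214 (GlyGCC), tR293 (GlyTCC), tR142 (ProTGG) and tR340 (LysCTT). GlnTTG gave the opposite case. The leading GlnTTG sequence of each other library, at 6.56% in S. italica, 14.1% in H. vulgare, 9.80% in T. aestivum and 21.7% in A. thaliana, was not listed in maize, and the nearest maize sequence was 26 edits from it. In maize all of GlnTTG held 0.00246%. Whether the set of tRNAs to which maize reads were matched held such a sequence is not known.

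**Figure D5:**
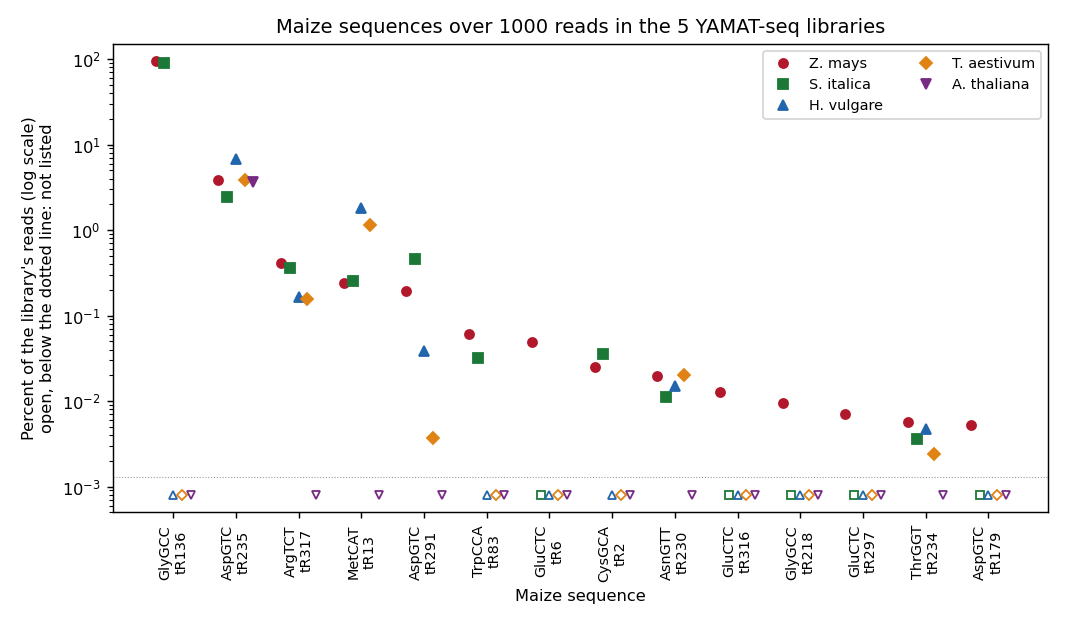
Share of each of the 14 maize sequences with over 1000 reads in the 5 YAMAT-seq libraries, in percent on a log axis, with open symbols below the dotted line for libraries in which the sequence is not listed. The glycine sequence tR136 is shared with S. italica, tR235 with all 4 other libraries, and the GluCTC sequences with none.

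The families without maize reads were thin in the other grasses as well. The 23 families had 0 reads in maize, 164 in S. italica, 52 in H. vulgare and 91 in T. aestivum, with totals of 6851530, 13059898 and 10517776 reads there, and 1639156 in A. thaliana. At least 1 of the other 3 grasses had reads for 16 of the 23, at most 77 for a family, SerGCT in S. italica. Leucine and serine tRNAs had 0 reads in maize, 123 in S. italica, 16 in H. vulgare and 33 in T. aestivum, against 1552386 in A. thaliana, of which SerGCT had 1336267. The families ProGGG, IleTAT, CysACA and AspATC had none in any of the 5 libraries. Each library stands for its species without a replicate, so these differences are values of 5 libraries and were not tested.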

How the data were processed

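For YAMAT-seq the authors deposited a raw read count for each CCA-ended tRNA sequence. tRNA-seq values were deposited as percent of the tRNA abundance per anticodon, per the file headers. No counts or depth came with them, so they have no interval. In the maize column all values above 0 were whole multiples of 0.00837%, so values near that step may rest on few counts. No label or header says whether fragment reads were counted in the tRNA-seq percents. Tools and builds named are cutadapt and TAIR10 of A. thaliana, per the submitters' processing notes. The aligner, the reference tRNAs of maize and the handling of reads with several matches, each of which could change which families have reads, were not stated in labels or headers. Groups came from the sample titles.

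The anticodon was read from the loop closed by a stem of 5 base pairs, and counts were summed per anticodon. A family was called higher or lower past a 4-fold ratio of the percents, with no pseudocount and no test. Edit distances came from edlib 1.3.9.post1, with 17 nuclear genes within 1 edit of an organelle gene left out. Intervals came from scipy 1.17.1, under Python 3.11.15 with pandas 2.3.3. The calculation was tested on simulated data.

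The sequences, family lists and rules were chosen with earlier results of these data known. Families were named if they reached 0.01% of YAMAT-seq reads, were among the 15 largest of tRNA-seq or were found on 1 side with at least 0.1% there. Smaller families, and sequences beyond the leads and seconds of large families, were chosen after their values were seen, as were the nearest-gene classes, paired changes and the comparison with the other libraries' unlisted families. Alternatives were 2-fold and 10-fold limits, pseudocounts of 0.01% and 0.001%, a tRNA-seq minimum of 0.1%, a minimum of 10 reads, merging of near-identical sequences, leaving out ambiguous loops, GlyGCC, or (chosen after seeing the data) GlyGCC and AspGTC, and other gaps in edits.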

Additional observations from a re-analysis of the deposited data

How the results depend on the processing

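With GlyGCC left out of both assays, 3 families were at least 4-fold higher in YAMAT-seq and 15 lower, and the log2 ratio turned positive in AspGTC (3.43), CysGCA (2.61), PheGAA (2.21), ArgTCT (1.68), TrpCCA (1.17) and MetCAT (0.55). With GlyGCC and AspGTC left out, an alternative chosen after seeing the data, 5 were higher and 10 lower, with log2 ratios of 4.99 in CysGCA, 4.59 in PheGAA, 4.06 in ArgTCT, 3.55 in TrpCCA, 2.93 in MetCAT, 1.70 in GluCTC, 0.95 in ThrGGT and 0.22 in AsnGTT. These shifts follow from the rescaling itself. The GlyGCC share was 95.3% without ambiguous loops and 0.207% of the reads other than tR136. Leaving out sequences under 10 reads left 44 sequences, and merging near-identical ones left 66. Families with 2 or more sequences then numbered 10 and 14, against 15. The median share of their leading sequence moved to 77.93% and 78.16%, against 89.66%. Families at least 4-fold lower and higher numbered 21 and 1 with tRNA-seq rescaled to 100, 20 and 1 with a pseudocount of 0.001%, 19 and 1 with 0.01%, 16 and 1 of 18 in families of at least 0.1%, and 15 and 1 of 18 without sequences under 10 reads. At 2-fold they were 22 and 1, and at 10-fold 18 and 1. A gap of 3 edits changed no class. No paired analysis was possible because each group held 1 library. Folds of families with under 10 reads are limited by counting error. No depth was given for tRNA-seq, and its values near the step of 0.00837% may rest on few counts.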
